A study of Mus musculus with 2 samples.

Results

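The 9 membrane-bound adenylyl cyclases of the mouse, Adcy1 to Adcy9, were taken by gene symbol from the deposited transcript tables of adult hippocampus. They are 9 of 55536 annotated genes, and all 9 passed the filter on low counts. Total RNA came from 2 adult male B6CASTF1/J mice aged 8 to 10 months, a hybrid of C57BL/6J and CAST/EiJ parents, with 1 library per animal and 300 ng of RNA in each. Replicate 1 is animal 2 and replicate 2 is animal 4, both from tissue labelled as a layer of hippocampus, and the labels name no treatment. The 2 libraries form 1 group, so levels and the spread between animals could be measured but no condition could be compared. Both animals carry the same donor entry, and the sources used here do not say whether they were littermates or were dissected together. The spread may therefore be partly technical, and the files do not separate the C57BL/6J and CAST/EiJ alleles.

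Adenylyl cyclases make cyclic AMP from ATP. They are switched on by the stimulatory G protein alpha subunit downstream of receptors, and the isoforms differ in what else they respond to. Adcy1 and Adcy8 are stimulated by calcium with calmodulin, Adcy3 is grouped with them, and Adcy2, Adcy4 and Adcy7 are stimulated by G protein beta-gamma subunits when the stimulatory alpha subunit is present. Adcy5 and Adcy6 are inhibited by calcium, and Adcy9 stands apart as the isoform least sensitive to forskolin. In the hippocampus, the calcium-stimulated isoforms are known for coupling synaptic calcium entry to cyclic AMP in synaptic plasticity and memory.

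The 9 genes share a recognisable catalytic core but not long stretches of identical bases, which matters for assigning reads to one isoform or another. The stretch shown here is 60 coding bases around a metal-binding site of the first catalytic domain, from GENCODE M21 transcripts on mm10, 5′ to 3′ on the coding strand. Capitals mark the 21 bases that all 9 genes have in common.
Adcy1: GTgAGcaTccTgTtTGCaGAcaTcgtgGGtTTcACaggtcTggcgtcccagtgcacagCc
Adcy3: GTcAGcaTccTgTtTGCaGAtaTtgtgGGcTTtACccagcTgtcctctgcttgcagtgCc
Adcy8: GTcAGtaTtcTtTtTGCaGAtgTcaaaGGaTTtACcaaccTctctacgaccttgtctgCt
Adcy2: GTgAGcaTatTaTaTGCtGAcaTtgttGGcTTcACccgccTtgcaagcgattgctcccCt
Adcy4: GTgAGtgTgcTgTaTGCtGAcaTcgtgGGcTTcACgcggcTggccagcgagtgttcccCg
Adcy7: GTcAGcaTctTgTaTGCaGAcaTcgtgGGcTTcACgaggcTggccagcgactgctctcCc
Adcy5: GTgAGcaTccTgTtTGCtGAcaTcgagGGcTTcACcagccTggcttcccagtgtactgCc
Adcy6: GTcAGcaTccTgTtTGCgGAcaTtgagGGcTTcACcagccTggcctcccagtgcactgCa
Adcy9: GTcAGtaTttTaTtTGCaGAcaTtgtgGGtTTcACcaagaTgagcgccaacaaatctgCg
Adcy5 and Adcy6 were the closest pair, with 54 of these 60 bases alike and 75.3% identity over their aligned coding sequences. Over all 36 pairs, coding identity ran from 64.0% to 75.3%, with a median of 66.3%. No run of 31 bases in Adcy1, Adcy2, Adcy3, Adcy5, Adcy7 or Adcy9 occurred in a transcript of another cyclase, and the counts of such runs were 4 for Adcy4, 1 for Adcy6 and 3 for Adcy8. Sharing with other genes was larger for 3 members that have a neighbour on the opposite strand. Adcy3 shared 20.1% of its 31-base runs with other genes, nearly all with Cenpo. Adcy6 shared 8.28%, mainly with the antisense gene Gm29331, and Adcy2 shared 3.83% with the antisense gene Gm35161. Cenpo held 97 and 74 expected counts in replicates 1 and 2, Gm35161 held 25 in each, and Gm29331 held 0. The library kit keeps strand per the labels' protocol, but the sources used here do not say whether the counting used strand, so small transfers between these overlapping genes cannot be told apart.

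The splice differences described below turn on short coding segments, shown here with their flanks in lower case and the variable bases in capitals. In Adcy8, exon 11 of 18 in transcript Adcy8-201, at chr15:64744841-64744930 on the minus strand of mm10, has 90 bases (30 codons) and is absent from Adcy8-202. The form without it is known as a splice variant that lacks part of an extracellular loop.
Adcy8-201, exon included: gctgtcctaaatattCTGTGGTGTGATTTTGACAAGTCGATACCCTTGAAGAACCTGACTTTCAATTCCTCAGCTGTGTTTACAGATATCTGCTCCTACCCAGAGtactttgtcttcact
Adcy8-202, exon skipped: gctgtcctaaatatttactttgtcttcact
In Adcy3, 3 bases at chr12:4208577-4208579 on the plus strand are in Adcy3-201 and Adcy3-204 but not in Adcy3-202 or Adcy3-207.
Adcy3-201, bases included: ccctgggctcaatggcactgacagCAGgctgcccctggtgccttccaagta
Adcy3-207, bases absent: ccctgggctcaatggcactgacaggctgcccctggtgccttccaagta
In Adcy6, 6 bases at chr15:98600172-98600177 on the minus strand are in Adcy6-201 but not in Adcy6-205.
Adcy6-201, bases included: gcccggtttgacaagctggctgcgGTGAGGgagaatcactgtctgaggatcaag
Adcy6-205, bases absent: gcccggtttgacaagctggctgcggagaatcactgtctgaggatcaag
In Adcy9, Adcy9-203 lacks 223 coding bases of Adcy9-202 at chr16:4418973-4419195 on the minus strand. The segment starts with GT and ends with AG, the bases found at the ends of most introns, and these are in capitals. Its length leaves a remainder of 1 when divided by 3, and the annotated coding sequence of Adcy9-203 is 711 bases (237 codons) shorter.
Adcy9-202, segment absent from Adcy9-203: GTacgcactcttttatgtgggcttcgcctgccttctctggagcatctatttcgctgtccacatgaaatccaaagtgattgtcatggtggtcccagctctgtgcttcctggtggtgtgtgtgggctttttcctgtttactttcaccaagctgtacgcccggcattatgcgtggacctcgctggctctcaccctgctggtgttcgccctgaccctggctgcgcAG

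Library depth was 23458117 expected counts (reads assigned by the program, not scaled) in replicate 1 and 29584307 in replicate 2. Of protein-coding genes, 13347 and 13293 reached 1 TPM, a unit that divides by transcript length and sums to the same total in each library. Markers of hippocampal neurons and glia were present in both libraries, with Slc17a7 highest of the pyramidal neuron list, Mpped1 of CA1, Homer3 of CA3, C1ql3 of dentate granule cells, Gad1 of interneurons, Slc1a2 of astrocytes, Mbp of oligodendrocytes, Pdgfra of their precursors, Csf1r of microglia, Ly6c1 of endothelial cells and Rgs5 of mural cells. The libraries stood apart in the choroid plexus list, a tissue next to the hippocampus. Its summed level was 17.9 TPM in replicate 1 and 1792 TPM in replicate 2, of which Ttr alone was 8.68 and 1703 TPM. By edgeR's test 8 of 9 markers were higher in replicate 2, and none was at 0 in either library. These 8 were Ttr, Folr1, Clic6, Slc4a5, Kl, Kcnj13, Aqp1 and Sostdc1, with log2 ratios from 2.24 for Kl to 7.71 for Ttr, and Otx2 did not pass (adjusted p = 0.0567 by edgeR). These were the only markers that passed of 68 tested. Genes listed as markers of neighbouring tissue were also detected, some only near 0. Summed, the striatum list, led by Ppp1r1b, held 43.1 and 56.3 TPM, and thalamus 25.4 and 21.3 TPM, led by Prkcd. Their lowest members by mean were Adora2a for striatum, at 0.540 and 0.470 TPM, and Gbx2 for thalamus, at 0.0300 and 0 TPM. Neocortex held 76.3 and 75.8 TPM, led by Tshz2, and ependymal cells 16.6 and 21.3 TPM, led by Rarres2. Whether these values come from neighbouring tissue was not tested. The part that choroid plexus RNA plays in the cyclase levels was not tested. In bulk tissue, fewer cells of a type and less RNA per cell cannot be told apart.

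Adcy1 was the most abundant cyclase. The isoforms fell from Adcy1 through Adcy2, Adcy9, Adcy5, Adcy3, Adcy6, Adcy8 and Adcy4 to Adcy7, and the mean TPM of Adcy1 was 105.9 times that of Adcy7. Neighbours in this order were called apart where the deposited TPM bounds (credible bounds, which carry counting and assignment error and whose level is not given) did not overlap in both libraries. By that rule 5 of 8 steps were apart. Adcy3 and Adcy6, Adcy8 and Adcy4, and Adcy4 and Adcy7 were not, and they were also the only pairs of all 36 that were not apart. The TPM itself lay outside its own bounds for 4 members in replicate 1 and 3 in replicate 2, against 7.37% and 6.06% of all genes at 1 TPM or more. The bounds enclosed the posterior mean, so calls from the bounds are not calls on the TPM printed beside them.

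**Figure D1:**
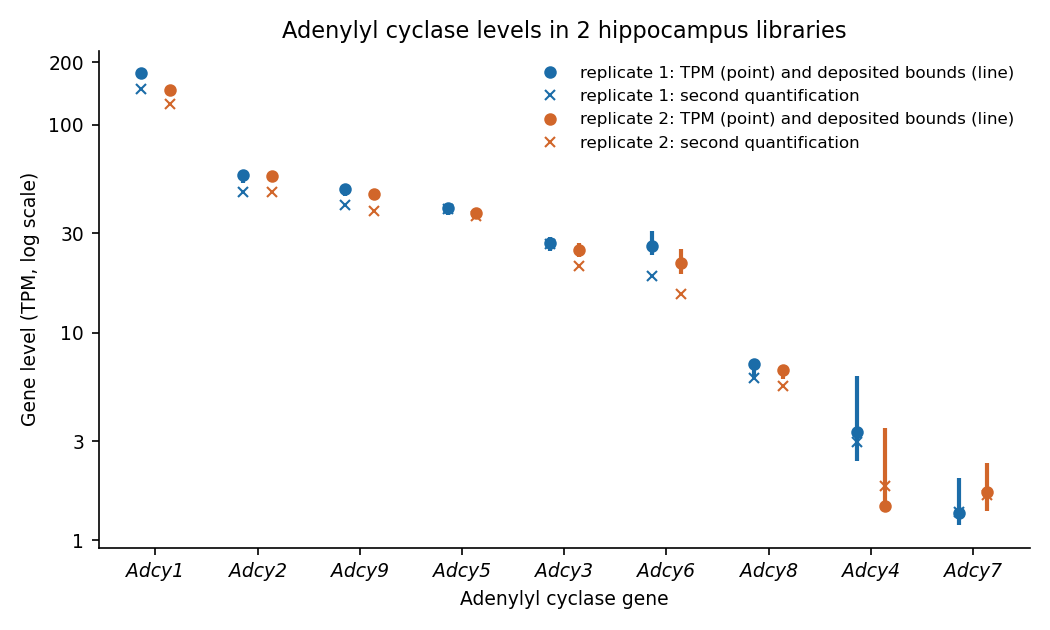
Gene level of each cyclase in TPM on a log axis, in order of mean level; points are the deposited gene TPM of replicate 1 (blue) and replicate 2 (orange), lines are the deposited bounds, and crosses are TPM from the second quantification summed per gene. Adcy1 lies above every other cyclase in both libraries, and the bounds of Adcy4 and Adcy7 meet at the bottom in replicate 2.

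Adcy1 (chr11:7063489-7178506, plus strand) is the calmodulin-dependent isoform of neurons. It stood at 177 TPM in replicate 1 and 147 TPM in replicate 2, a mean of 162 ± 20.9 TPM (SD, n = 2). Its level was above that of 96.9% and 95.8% of the protein-coding genes at 1 TPM or more. The bounds were 167 to 170.4 TPM in replicate 1 and 141 to 144 TPM in replicate 2, so those of replicate 1 lay wholly above. Adcy1 was the only 1 of the 9 cyclases with bounds apart between libraries, against a background of 24.4% of genes, 20.6% being lower and 3.82% higher in replicate 2. The 7SL genes took 24.7% of TPM in replicate 1 and 26.9% in replicate 2, and their part in that background was not tested. The read counts, compared after TMM scaling (which aligns the bulk of genes), gave a log2 ratio of -0.14 for replicate 2 over replicate 1, which did not pass edgeR's test. Adcy1 was 3.09 times Adcy2, the next isoform, in replicate 1 and 2.60 times in replicate 2.

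Adcy3 (chr12:4133103-4213525, plus strand) is the cyclase of olfactory signalling and of the neuronal primary cilium. It stood at 26.9 and 25.0 TPM in replicates 1 and 2 (mean 25.9 ± 1.38, SD, n = 2). Adcy8 (chr15:64697084-64922296, minus strand), the other strongly calmodulin-dependent isoform, stood at 7.06 and 6.58 TPM (mean 6.82 ± 0.339, SD, n = 2). The 3 calcium-stimulated genes were thus spread over the order, with Adcy1 at the top and Adcy8 below 6 of the others. Against the 6 other cyclases, Adcy1 was apart above all 6 by the bounds in both libraries. Adcy3 was apart above 2 and below 3 of them. Adcy8 was apart above 1 and below 4.

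Summed, the calcium-stimulated cyclases held 211 of 388 TPM in replicate 1 and 179 of 344 TPM in replicate 2. That was 54.3% and 52.0% of cyclase TPM, a mean of 53.1% ± 1.66 (SD, n = 2), with Adcy1 alone at 45.6% and 42.8%. Adcy3 and Adcy8 together added 8.75% and 9.16%. The summed TPM of calcium-stimulated isoforms was 1.19 times that of the other 6 in replicate 1 and 1.08 times in replicate 2. These ratios depend on placing Adcy3, at 26.9 and 25.0 TPM, in the class. With Adcy3 counted among the others, Adcy1 and Adcy8 together held less TPM than the rest in both libraries. G beta-gamma-stimulated cyclases held 16.0% and 17.4%, calcium-inhibited cyclases 17.0% and 17.2%, and Adcy9 12.7% and 13.5%. Without Adcy1, the calcium-stimulated class held less TPM than any of the 3 other classes in both libraries. Adcy1-201 is 12259 bases long, and in expected counts, which are not per length, the calcium-stimulated share was 73.0% and 71.0%.

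**Figure D2:**
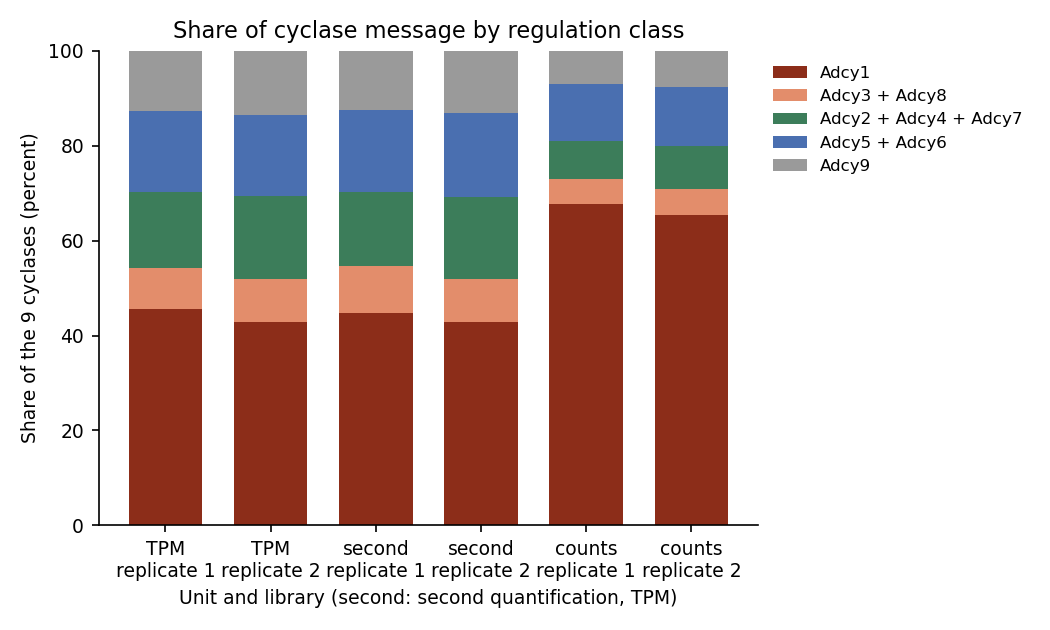
Share of the 9 cyclases in percent, stacked by regulation class, for replicates 1 and 2 in deposited TPM, in TPM of the second quantification and in expected counts. Adcy1 forms the largest block in every bar, at 45.6% and 42.8% of TPM and 67.7% and 65.3% of expected counts.

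Among the G beta-gamma-stimulated isoforms, Adcy2 (chr13:68620043-68999541, minus strand) was high and the others were low. Adcy2, also known to respond to protein kinase C, stood at 57.3 and 56.8 TPM (mean 57.0 ± 0.396, SD, n = 2), from 3323 and 4438 expected counts. Adcy4 (chr14:55769057-55784095, minus strand) stood at 3.32 and 1.47 TPM (mean 2.40 ± 1.31, SD, n = 2), from 105 and 81 expected counts. Adcy7 (chr8:88272403-88329962, plus strand), best known from blood and immune cells, stood at 1.36 and 1.70 TPM (mean 1.53 ± 0.240, SD, n = 2), from 105 and 150 expected counts. Relative to its level, Adcy2 differed least between the animals in TPM. The order of Adcy4 and Adcy7 turned between the libraries, with Adcy4 higher in replicate 1 and lower in replicate 2, but only in the deposited TPM. By posterior mean Adcy4 was above Adcy7 in both libraries (4.17 against 1.57 TPM and 2.32 against 1.84 TPM), as it was by the second quantification. In replicate 1, 1.23 TPM of Adcy4 was assigned to Adcy4-205, a fragment of 256 bases that was listed at 0 in replicate 2. That 1.23 TPM rests on 2.71 expected counts, with 1.17 estimated counts by the second quantification. The summed TPM of microglia markers was 68.0 and 81.7, and that of endothelial markers was 74.1 and 66.2. Their part in the levels of Adcy7 and Adcy4 was not tested.

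Of the calcium-inhibited isoforms, Adcy5 (chr16:35154877-35305738, plus strand), the main cyclase of the striatum, stood at 39.8 and 37.4 TPM (mean 38.6 ± 1.70, SD, n = 2). Adcy6 (chr15:98589973-98610076, minus strand), widely expressed and prominent in the heart, stood at 26.2 and 21.6 TPM (mean 23.9 ± 3.25, SD, n = 2). Adcy5 was apart from Adcy6 by the bounds in both libraries. The 7 striatal markers summed to 43.1 and 56.3 TPM, from Adora2a, an adenosine receptor gene, at 0.540 and 0.470 TPM to Ppp1r1b, a regulator of protein phosphatase, at 26.2 and 38.4 TPM, and none was at 0. Their part in the level of Adcy5 was not tested. Adcy9 (chr16:4287529-4420498, minus strand) stood at 49.3 and 46.3 TPM (mean 47.8 ± 2.08, SD, n = 2). It ranked below Adcy2 and above Adcy5, apart from each in both libraries.

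No cyclase passed the test between the 2 animals. With edgeR's test and Benjamini-Hochberg adjustment, 0 of 9 were called at an adjusted p under 0.05, against 0.806% of all 16123 genes tested (0.372% higher and 0.434% lower in replicate 2), and 0 of 9 had an unadjusted p under 0.05 (778 of all genes did). The smallest unadjusted p was 0.171, for Adcy6, and every adjusted p by edgeR was 0.9999. The log2 ratio of replicate 2 over replicate 1 was -0.67 for Adcy4, -0.29 for Adcy6, -0.14 for Adcy1 and -0.05 for Adcy3. It was 0.03 for Adcy5 and for Adcy9, 0.10 for Adcy2, 0.12 for Adcy8 and 0.20 for Adcy7. The median of the 9 was 0.03, with 5 above 0, beside a median of -0.00 and 8027 of 16123 above 0 for all genes. Over 7 settings of the test, 0 of 9 cyclases passed, with adjusted p from 0.876 to 1.00 by edgeR. Scaling by the ERCC spike-ins (synthetic RNAs added to each sample) moved the median of all genes to -0.23 and put all 9 cyclases below 0. The test took its dispersion (the expected spread) from these same 2 libraries, so a gap typical of genes at that abundance would not pass. A p that misses the threshold with 2 libraries does not show that the animals had the same levels.

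The other genes of the cyclic AMP pathway did not pass either: of 72 listed genes, 68 were tested and 0 passed in each direction, with a median log2 ratio of 0.04 and 39 above 0. Upstream of the cyclases, Gnas, the stimulatory alpha subunit of most cells, stood at 891 and 907 TPM, and its relative Gnal at 54.3 and 51.0 TPM. Of the inhibitory alpha subunits, Gnao1 was highest at 319 and 304 TPM and Gnai3 lowest at 14.5 and 13.0 TPM. Among the beta and gamma subunits, Gnb1 stood at 354 and 366 TPM and Gnb4 at 5.10 and 6.60 TPM. The highest gene of each of these 3 groups stood above Adcy1 in both libraries. Of the genes for calmodulin, the calcium sensor that acts on Adcy1 and Adcy8, Calm2 stood at 1005 and 1050.3 TPM. Receptors coupled to the stimulatory G protein stood below Gnas, Gnao1 and Gnb1, though the highest of them stood above Gnal, Gnai3 and Gnb4. The highest of 17 was Adcyap1r1, the receptor of the peptide PACAP, at 80.3 and 67.2 TPM, and the lowest was Ptger2, a prostaglandin receptor, at 0.120 and 0.0900 TPM. Adcy10, the soluble cyclase that is stimulated by bicarbonate and not by G proteins, stood at 0.450 and 0.0600 TPM and was too low to test.

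Downstream, cyclic AMP is broken down by phosphodiesterases and read by protein kinase A and exchange factors, and CREB lies further along the pathway. Pde2a was the highest phosphodiesterase at 175 and 155 TPM, a level close to that of Adcy1, and Pde3a was the lowest by mean, at 1.12 and 1.08 TPM. Of the protein kinase A subunits, Prkar1a stood at 274 TPM in both libraries and Prkar2b at 14.5 and 16.3 TPM. The exchange factor gene Rapgef4 stood at 212 and 217 TPM and Rapgef3 at 27.7 and 20.7 TPM. Among the A-kinase anchors, which place the kinase beside its substrates, Akap11 was highest at 95.8 and 95.9 TPM and Akap12 lowest at 6.74 and 6.04 TPM. The CREB coactivator genes Crtc1, at 99.95 and 83.8 TPM, and Crtc3, at 12.1 and 8.97 TPM, were the highest and the lowest of their group.

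**Figure D3:**
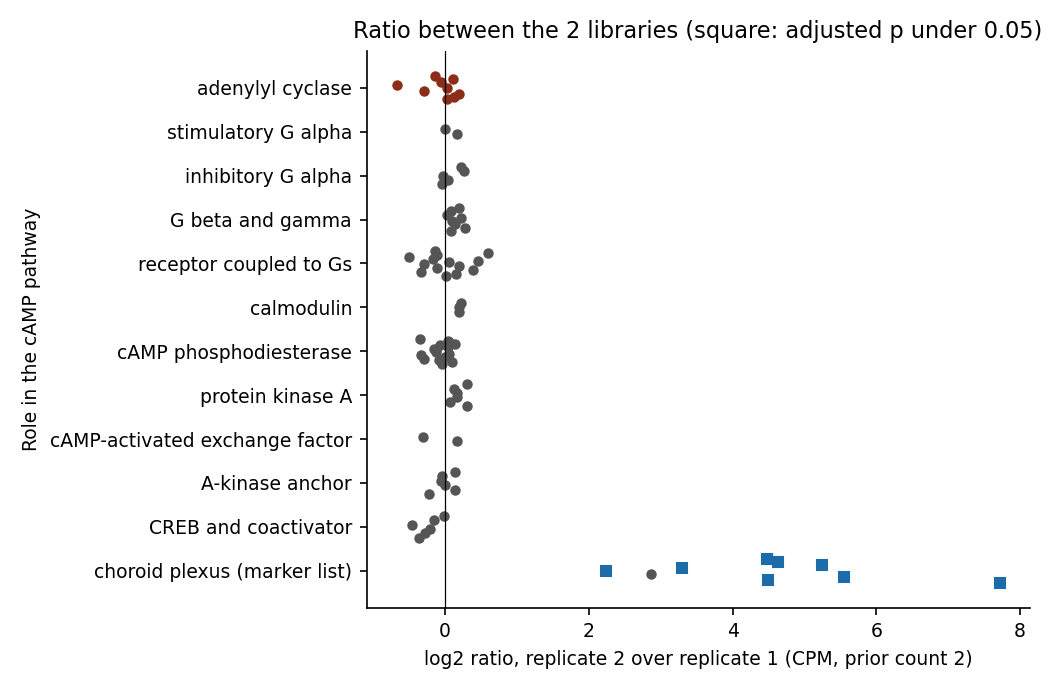
Log2 ratio of replicate 2 over replicate 1 (CPM after TMM scaling, prior count 2) for each tested gene, by role; red points are the 9 cyclases, grey points other genes, and blue squares genes with an adjusted p under 0.05 by edgeR. The cyclases lie between -0.67 and 0.20, and the 8 squares are all in the choroid plexus marker list.

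The annotation gives the 9 genes 38 transcripts, 23 of them protein-coding, and how a gene's TPM was divided among them differed by isoform. By the first quantification, Adcy1 and Adcy5 were each carried almost wholly by 1 coding transcript, and Adcy2 has only 1 annotated transcript. Adcy1-201 held 99.7% and 99.95% of Adcy1 TPM in replicates 1 and 2, and Adcy2-201 and Adcy5-201 held 100% of theirs in both. Of the 23 transcripts at 1 TPM or more in a library, 5 had bounds apart between the libraries, against a background of 17.1% of such transcripts. Of the 5, Adcy3-201 and Adcy8-201 were higher in replicate 2 (background 2.50%), and Adcy1-201, Adcy4-202 and Adcy8-203 were lower (background 14.6%). The same single transcript led in both libraries for 5 of 9 genes, and for 7 by the second quantification. Both counts include Adcy2 by construction. In Adcy7 a pair of transcripts tied for the lead in replicate 1.

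The form of Adcy8 that skips the alternative exon was assigned reads in replicate 1 and none in replicate 2, with bounds that overlapped. In replicate 1, the form with the 90-base exon printed above, Adcy8-201, stood at 3.68 TPM (bounds 2.30 to 4.50) and the form without it, Adcy8-202, at 1.93 TPM (bounds 0.789 to 2.99). In replicate 2, Adcy8-201 stood at 6.32 TPM (bounds 4.62 to 6.40) and Adcy8-202 was listed at 0 (upper bound 1.37). The exon-containing form thus made up 65.6% of full coding TPM in replicate 1 and 100% in replicate 2, and 70.2% and 100% by the second quantification. Full coding TPM counts protein-coding transcripts whose coding length was near the longest of their gene. By posterior mean Adcy8-202 held 28.3% and 7.67% of all Adcy8 TPM, against 27.4% and 0% by the deposited TPM. The bounds of Adcy8-201 did not overlap between the libraries, and with 1 library per animal this has no replicate check. A retained-intron transcript, Adcy8-203, stood at 1.45 TPM in replicate 1 and 0.260 TPM in replicate 2.

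In Adcy3, the form with the 3 added bases made up 21.01% of full coding TPM in replicate 1 and 42.0% in replicate 2, and 26.6% and 44.4% by the second quantification. Its transcript Adcy3-201 stood at 1.58 TPM (bounds 0.0357 to 3.69) and 8.58 TPM (bounds 5.96 to 10.5). Its other transcript, Adcy3-204, moved the opposite way, from 3.26 to 0.490 TPM, with bounds that overlapped. In Adcy6, the form without the 6 bases stood at 0.320 TPM in replicate 1 and 3.79 TPM in replicate 2, which was 3.38% and 40.3% of full coding TPM, against 9.66% and 23.1% by the second quantification. By posterior mean this form, Adcy6-205, held 4.95% and 15.6% of all Adcy6 TPM, against 1.21% and 17.5% by the deposited TPM. The bounds of Adcy6-205 overlapped between libraries (upper bound 3.18 in replicate 1, lower bound 1.19 in replicate 2). These transcripts also differ outside the printed segments. Adcy6-205 has 3707 bases against 6038 in Adcy6-201, and the coding transcripts of Adcy3 have 4348 to 4962. Reads outside the printed segments therefore also enter these shares. In all 3 genes with a skipped or shifted segment, both quantifications gave the same direction between the animals, from the same reads.

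Adcy9 was divided alike in both libraries. The short coding form, Adcy9-203, stood at 16.5 TPM (bounds 13.96 to 17.6) in replicate 1 and 15.7 TPM (bounds 13.6 to 16.9) in replicate 2. That was 33.6% and 33.8% of coding TPM, and 37.5% and 38.8% by the second quantification. The remaining Adcy9 TPM was placed on Adcy9-202 by the first quantification (66.4% and 66.2%) and on Adcy9-201 by the second, at 24.6 and 23.0 TPM. Adcy9-201 and Adcy9-202 have coding sequences of the same 4059 bases in length, so the choice between them does not alter the share of the long form. Whether the bases printed above were removed as an intron was not tested.

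**Figure D4:**
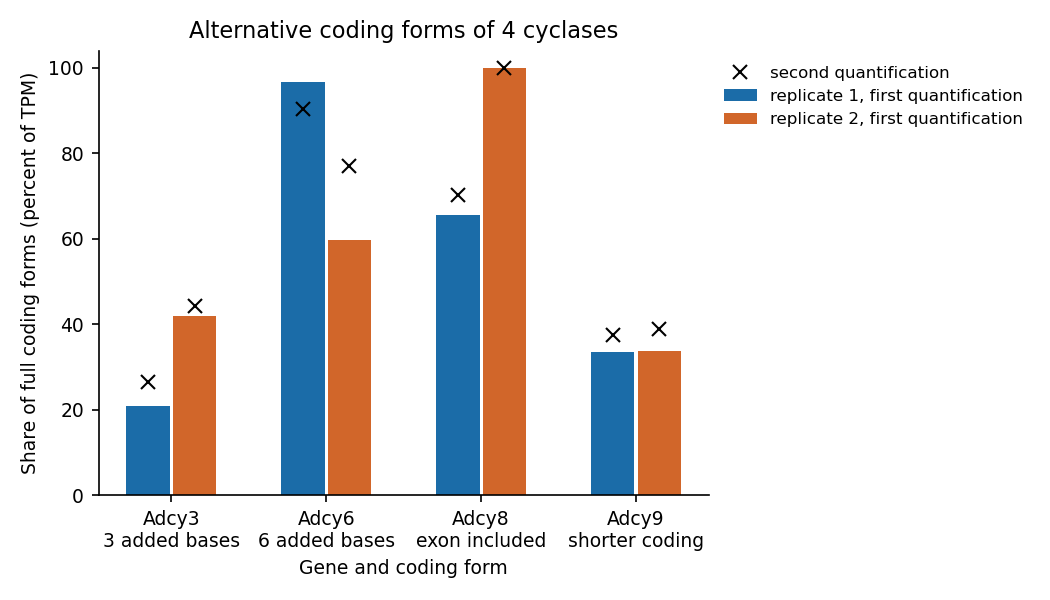
Share of full coding TPM in percent for the Adcy3 form with 3 added bases, the Adcy6 form with 6 added bases, the Adcy8 form with the alternative exon and the shorter coding form of Adcy9; bars are the first quantification in replicate 1 (blue) and replicate 2 (orange), and crosses the second quantification. The Adcy9 bars are level at 33.6% and 33.8%, while the Adcy8 bars stand at 65.6% and 100%.

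Adcy6 had the smallest share of its TPM on full coding transcripts by the first quantification. That group is not limited to complete coding sequences, and for Adcy9 it includes the shorter Adcy9-203. The full coding transcripts of Adcy6 held 36.1% and 43.5%, against 61.2% and 59.3% by the second, in which Adcy4 was lower at 54.1% and 49.3%. By the first quantification a retained-intron transcript, Adcy6-202, held 24.9% and 28.5%, and Adcy6-207, annotated as a target of nonsense-mediated decay, held 20.8% and 7.87%. Adcy6-204, a fragment of 612 bases, held 4.76 and 4.36 TPM by the first quantification and was listed at 0 by the second. Adcy6-201, which led by mean over the libraries but not in replicate 2, stood at 9.15 and 5.61 TPM, with bounds of 6.25 to 10.1 and 3.55 to 7.25 that overlapped. The transcripts of Adcy4 and Adcy7 rest on few reads. Adcy4-201 was listed at 0 in replicate 1 and at 1.17 TPM in replicate 2, Adcy4-202 at 1.92 TPM and 0, and the pair share a coding length of 3231 bases. Adcy7-201 and Adcy7-202 have the same length, stood at 0.510 TPM each in replicate 1, and at 1.21 TPM and 0 in replicate 2.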

How the data were processed

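Per the labels and the text files deposited with them, the tables of each library (1 of genes, 2 of transcripts) use mm10 and GENCODE M21. Column names are those of RSEM (gene table and first transcript table) and kallisto (second), and the sources used here give no program or version. Expected counts, as the authors deposited them, are estimated reads per feature, not scaled. The deposited TPM values are per length and sum to the same total in each library. Percent values, also from the authors, divide a gene's TPM among its transcripts. The second table's estimated counts and TPM, as deposited per transcript, were summed per gene.

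Expected counts were rounded to whole numbers and tested with edgeR 4.0.16 in R 4.3.3. The fit had an intercept alone, TMM scaling, trended dispersion and genes at CPM of 1 or more in at least 1 library. Residual deviance was compared with a chi-square distribution of 1 degree of freedom, with Benjamini-Hochberg adjustment over all genes. The dispersion came from the same 2 libraries, so a p-value asks whether a gene's gap exceeds the typical gap of genes at its abundance. The test compares these 2 libraries, not conditions. It was also run on simulated counts drawn with the dispersion fitted to these 2 libraries, so that run cannot check the dispersion itself. Rows on no annotated gene held 0.210% and 0.243% of counts. Sequences came from the GENCODE M21 transcripts, read with Biopython 1.88 under Python 3.11.15. Alternatives were other scalings, filters, dispersions and quantifications, leaving out each library, and, chosen after the data were seen, spike-in scaling. Intervals and bounds cover counting and assignment error only.

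The members and lists were chosen with earlier results of these data known. Named were all 9 cyclases, the highest and lowest pathway gene of each role, the highest marker of each cell type list and every listed gene that passed. Adora2a, Gbx2 and Otx2 were added after their values were seen. The lowest gene of 1 role is not reported here. No gene was named for a pattern like a cyclase's, because 1 group gives no pattern across conditions.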

Additional observations from a re-analysis of the deposited data

How the results depend on the processing

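With 2 animals and 1 group, leaving out a library leaves no test, and a level or share then moves by less than 1 SD by construction, so this says nothing about stability. The separated neighbours were 6 of 8 in either library alone, against 5 in both. By posterior mean they were 7, but its SD was 0 for every cyclase, so that count only gives steps in the same order in both libraries. No paired analysis was possible because the labels give a single group. By the second quantification, mean levels were 137 TPM for Adcy1, 47.4 for Adcy2, 23.9 for Adcy3, 17.0 for Adcy6, 5.80 for Adcy8 and 40.0 for Adcy9, each beyond 1 SD between animals, and the order of the 9 was the same. Adcy2 was 54.6 TPM by posterior mean. The calcium-stimulated share was 72.0% in expected counts, where the long Adcy1 message counts for more. Leading transcript shares by the second quantification were 95.6% for Adcy1-201, 81.6% for Adcy5-201, 50.4% for Adcy6-201, 27.0% for Adcy7-201 and 2.32% for Adcy9-202. By posterior mean they were 99.0% for Adcy5-201, 20.4% for Adcy7-201 and 50.8% for Adcy9-202. The number of genes passing between the libraries was 341 with a common dispersion against 130, and 88 to 130 under the other settings. Under spike-in scaling, which moved the median of all genes to -0.23, log2 ratios turned to -0.13 for Adcy2, -0.20 for Adcy5, -0.029 for Adcy7, -0.11 for Adcy8 and -0.20 for Adcy9. Under the second quantification Adcy3 turned to 0.013. The cause of these shifts was not tested. Depth limits Adcy4 and Adcy7 most, at 81 to 150 expected counts per library.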
